A study of Mus musculus with 20 samples.

Results

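Apoe and 9 further genes through which glia make, move and store lipid were followed in the hippocampus of mice with and without miR-34a and with and without an amyloid transgene. The 10 genes (Apoe, Clu, Lpl, Lrp1, Abca1, Abcg1, Ch25h, Soat1, Plin2 and Fabp5) were taken by name rather than by a rule on their values, with earlier results of these data known. Their rows were read from a table of read counts for 39056 genes, and all 10 were among the 16107 genes that passed the filter on low counts. RNA came from the left hippocampus of 20 female C57BL/6 mice aged 12 to 13 months, bred as cohorts of littermates, with 1 library a mouse and 5 mice in each of 4 groups. WT Non-Tg mice had miR-34a and no transgene, and KO Non-Tg mice lacked miR-34a and had no transgene. WT Tg-SwDI mice had miR-34a and carried human APP with the Swedish, Dutch and Iowa mutations, and KO Tg-SwDI mice carried the same transgene without miR-34a. The transgene is driven by a Thy1 promoter, which acts in neurons, while miR-34a was deleted constitutively in the whole body. An effect of its loss in 1 cell type therefore cannot be told apart from an effect of its loss in another. Because whole tissue was sequenced, a change in the number of cells of a type and a change in the RNA of each cell cannot be told apart either.

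In the brain, cholesterol hardly crosses from the blood and is passed between cells on lipoprotein particles that astrocytes and microglia build around Apoe and Clu. Abca1 and Abcg1 load these particles with cholesterol and phospholipid, Lrp1 takes them up, Lpl frees fatty acids from their triglycerides, and Fabp5 carries fatty acids inside cells. Cholesterol in excess is hydroxylated to an oxysterol by Ch25h or esterified by Soat1, and the esters are kept in lipid droplets coated by Plin2. Apoe and Lpl are known to be raised in microglia that surround amyloid plaques, and the human genes APOE and CLU are known risk genes for Alzheimer's disease.

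The libraries held between 19549622 and 21066868 counts, so the depth hardly differed between mice. Thy1, whose promoter the transgene carries, read 685 to 769 CPM (counts scaled to library size with TMM factors) in Non-Tg mice and 1905 to 3318 CPM in Tg-SwDI mice, so each library matched its transgene label. The deleted microRNA itself was not analysed here, so the KO label was not checked against it. Mitochondrial genes took 6.94% to 8.76% of the counts in 19 mice and 14.6% in KO Tg-SwDI 8, which stood apart, and results that rest on this mouse are also given without it. Markers of choroid plexus, the secretory tissue of the ventricles (14 genes, summed), exceeded 1000 CPM in 3 of 5 WT Non-Tg, 0 of 5 KO Non-Tg, 4 of 5 WT Tg-SwDI and 4 of 5 KO Tg-SwDI mice. The P-values measure the spread between mice.

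The deleted microRNA is shown because a messenger that it binds through its seed would carry the reverse complement of these bases. The mature sequence from RefSeq (GRCm38.p6, chr4:150068473-150068494, plus strand) is given here with its seed, bases 2 to 8, in capitals.
mmu-miR-34a-5p: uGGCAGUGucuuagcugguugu
In the longest annotated 3′ UTR of each of the 10 genes, between 230 bases (Clu) and 6534 bases (Soat1) long, neither CACTGCC nor ACTGCCA was found. Across 21022 genes with a 3′ UTR, 19.8% held at least 1 of these matches and 4.9% held both together as CACTGCCA, with a median length of 960 bases. The 3′ UTR of Apoe had 271 bases and that of Ch25h had 452. The absence of a match says only that these letters are not in these stretches.

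RefSeq promoter windows (GRCm38.p6, from 250 bases before to 50 after the start) were matched for 6 of the 10 genes: Apoe, Lrp1, Abca1, Ch25h, Soat1 and Plin2. Clu, Lpl, Abcg1 and Fabp5 had no entry. The windows of the 5 genes among these that were higher in Tg-SwDI mice are printed, for Apoe the first of 3. The letters upstream of genes that rose with the transgene can thus be compared, and the Lrp1 window is not printed. Capitals mark exact matches, on either strand, to the E-box CACGTG, the PU.1 core GAGGAA or the TATA box TATAAA.
Apoe, chr7:19699139-19699438, minus strand: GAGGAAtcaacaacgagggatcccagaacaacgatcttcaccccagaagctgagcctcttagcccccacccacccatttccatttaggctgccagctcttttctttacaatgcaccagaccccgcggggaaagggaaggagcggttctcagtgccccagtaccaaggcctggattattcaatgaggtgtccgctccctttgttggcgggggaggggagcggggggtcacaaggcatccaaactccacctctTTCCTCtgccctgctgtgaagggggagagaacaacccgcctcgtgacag
Abca1, chr4:53159846-53160145, minus strand: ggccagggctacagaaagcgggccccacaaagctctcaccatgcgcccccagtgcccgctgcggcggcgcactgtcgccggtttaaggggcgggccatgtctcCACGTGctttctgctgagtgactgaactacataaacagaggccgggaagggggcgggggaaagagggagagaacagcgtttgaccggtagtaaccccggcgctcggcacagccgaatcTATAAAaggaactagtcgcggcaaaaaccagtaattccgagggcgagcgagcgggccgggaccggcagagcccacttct
Ch25h, chr19:34475099-34475398, minus strand: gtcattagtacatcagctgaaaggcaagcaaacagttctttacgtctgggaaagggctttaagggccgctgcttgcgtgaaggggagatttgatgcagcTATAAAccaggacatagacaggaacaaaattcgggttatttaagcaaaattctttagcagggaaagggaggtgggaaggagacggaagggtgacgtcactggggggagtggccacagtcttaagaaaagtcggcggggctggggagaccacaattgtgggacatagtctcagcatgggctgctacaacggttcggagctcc
Plin2, chr4:86670010-86670309, minus strand: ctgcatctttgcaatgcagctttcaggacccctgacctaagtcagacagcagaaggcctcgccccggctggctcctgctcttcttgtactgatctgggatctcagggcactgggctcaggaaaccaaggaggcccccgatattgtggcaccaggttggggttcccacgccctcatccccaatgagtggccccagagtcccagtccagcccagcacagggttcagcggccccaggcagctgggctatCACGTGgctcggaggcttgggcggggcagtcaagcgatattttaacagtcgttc
Soat1, chr1:156474279-156474578, minus strand: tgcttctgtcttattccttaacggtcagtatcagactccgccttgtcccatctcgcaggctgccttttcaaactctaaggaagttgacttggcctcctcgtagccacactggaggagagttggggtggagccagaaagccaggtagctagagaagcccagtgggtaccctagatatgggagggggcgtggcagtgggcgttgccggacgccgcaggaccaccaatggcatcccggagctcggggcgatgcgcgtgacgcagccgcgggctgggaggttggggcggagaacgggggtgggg
The E-box occurred in the windows of Abca1 and Plin2 and in 7.15% of 32851 promoter windows of the same length. The PU.1 core occurred at 2 positions in the Apoe window shown and in 28.28% of all windows, and the TATA box occurred in those of Abca1 and Ch25h and in 13.62%. The repeat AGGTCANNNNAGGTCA, to which liver X receptors bind, was in none of the windows of the 6 genes and in 0.02% of all windows. Only these exact letters were searched, and they occur in 5 of 32851 windows. Their absence therefore does not show that a window lacks a variant of the repeat. The Soat1 window held none of these motifs, and neither did that of Lrp1, which did not rise with the transgene. No motif was common to the 5 windows, and a match is a description of the letters only.

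Per kb of exon, Apoe was the most abundant of the 10 genes in WT Non-Tg mice with a mean of 649 CPM per kb. Clu followed with 291 and Lrp1 with 25.4 CPM per kb, and the other 7 lay below, down to Plin2 with 1.42 and Ch25h with 0.425 CPM per kb. The 10 genes were thus measured at very different precision. Apoe rested on 25478 to 31816 counts a mouse in this group and Ch25h on 9 to 16.

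**Figure D1:**
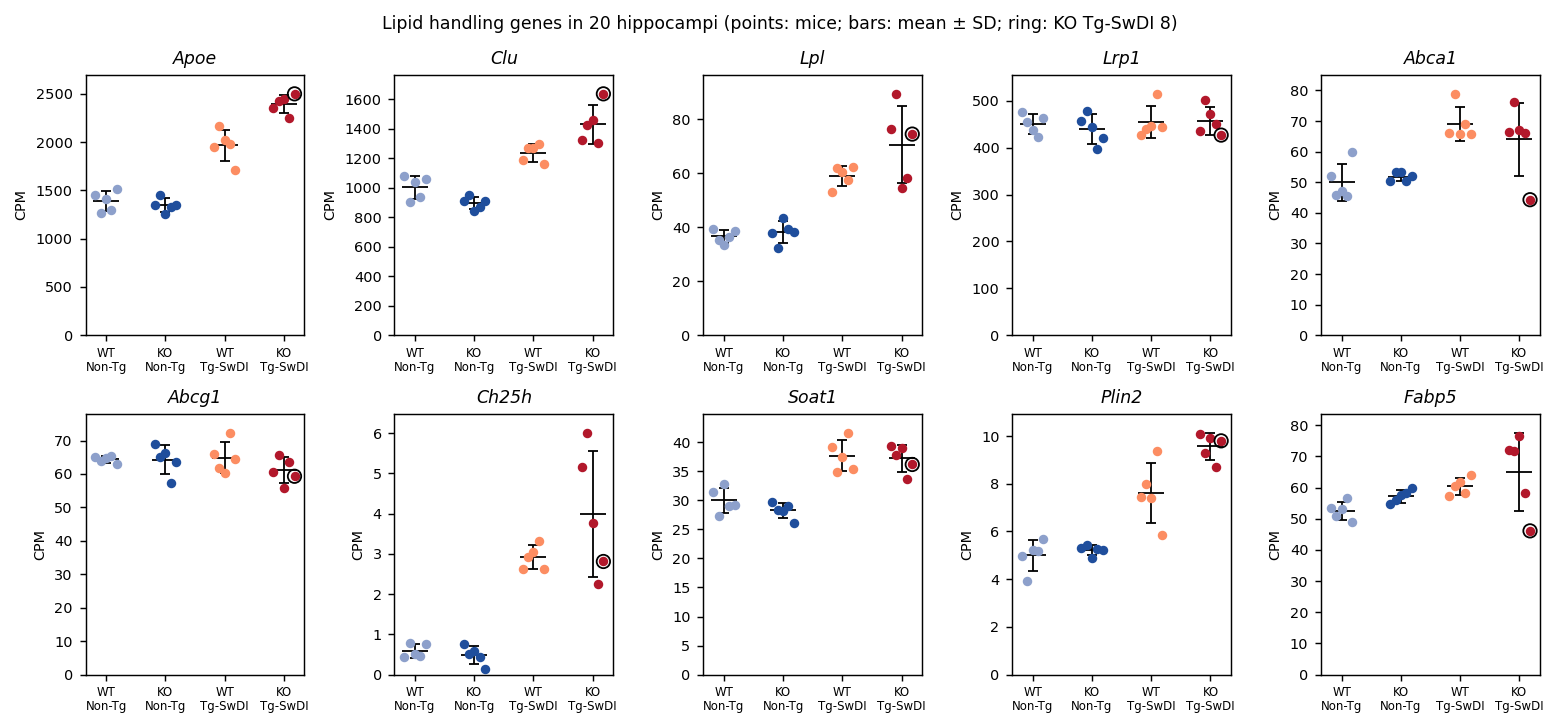
Level of each of the 10 genes in every mouse, in CPM on TMM library sizes, with group means and SD (bars, n = 5) and a ring around KO Tg-SwDI 8. Apoe reads 1258 to 1519 CPM in Non-Tg mice, 1715 to 2162 in WT Tg-SwDI and 2252 to 2500.2 in KO Tg-SwDI, while Lrp1 and Abcg1 overlap in all 4 groups.

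Most of the 10 genes were higher in mice with the transgene. With miR-34a present, 7 of 10 rose (Apoe, Clu, Lpl, Abca1, Ch25h, Soat1 and Plin2) and none fell in the quasi-likelihood test of edgeR, with p-values adjusted over all genes. Of all genes tested, 3.94% were called higher and 0.466% lower in this comparison. The groups did not overlap for 8 of the 10, with the Tg-SwDI mice higher, against 5.1% of all genes. Without miR-34a the same 7 genes rose and none fell, beside 12.5% of all genes called higher and 8.31% called lower. Here 6 of 10 did not overlap, with the Tg-SwDI mice higher, against 8.47% of all genes. The median log2 fold change of the 10 was 0.40 in WT and 0.54 in KO mice, while that of all genes was 0 and -0.005. The comparisons within WT and within KO use separate mice. In both, 9 of 10 genes were higher with the transgene, as were 29.6% of all genes. KO Tg-SwDI 8 is not part of the WT comparison but enters the fit shared by all groups. Without it, 8 of 10 genes rose in WT and 8 of 10 in KO mice, Fabp5 being added to the 7. Of the 16224 genes then tested, 767 were called higher in WT and 1904 in KO mice. With all mice these were 635 and 2013 of 16107.

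Between KO and WT mice 1 of the 10 was called, and only in mice with the transgene. Among Tg-SwDI mice, 1 of 10 (Apoe) was higher in KO than in WT mice and none was lower, beside 1.48% of all genes called higher and 0.503% called lower. Apoe and Clu did not overlap between these groups, with KO mice higher, as did 2.04% of all genes. The median of the 10 was 0.16 on the log2 scale, against 0.003 for all genes. The number of all genes called in this comparison, 320, depended on single mice and was 78 without WT Tg-SwDI 7 and 701 without KO Tg-SwDI 2. Among Non-Tg mice, 0 of the 10 were called by edgeR, and 0% of all genes were. At an unadjusted p under 0.05 there were 1 of the 10 (Clu) and 1302 genes in all, and DESeq2 called 0 of the 10. The effect of the transgene differed between KO and WT mice for 1 of 10 (Clu), beside 0.428% of all genes with a larger value in KO mice and 0.18% with a smaller one. Its point estimate was larger in KO mice for 7 of 10, against 51.9% of all genes.

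**Figure D2:**
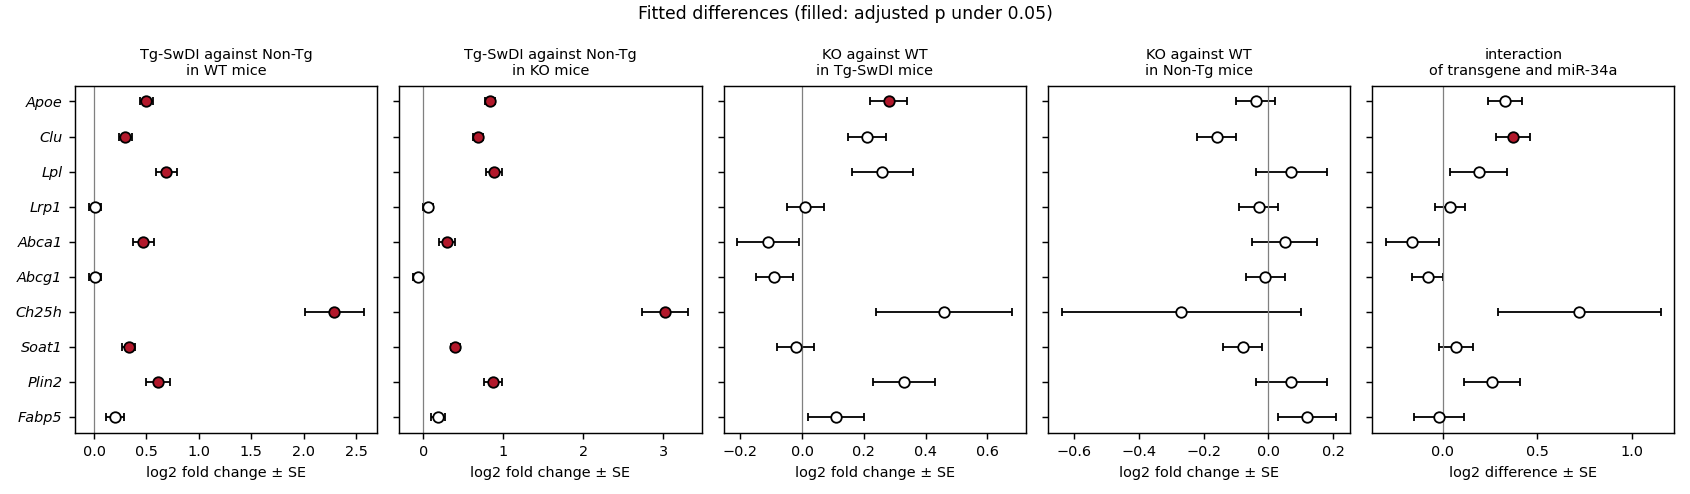
Fitted log2 differences with their standard errors for the 10 genes in 5 comparisons, filled where the adjusted p is under 0.05. The 2 panels of the transgene hold 7 filled points each, the panel of KO against WT in Tg-SwDI mice holds Apoe alone, and the last panel holds Clu alone. The scale of the horizontal axis differs between panels.

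Values of single mice are given in the order of their label numbers, which are 2, 3, 4, 6 and 7 for WT Non-Tg, 1, 2, 4, 7 and 8 for KO Non-Tg, 3, 4, 5, 6 and 7 for WT Tg-SwDI and 1, 2, 3, 5 and 8 for KO Tg-SwDI. Apoe (chr7:19696109-19699188, minus strand), the main apolipoprotein of the brain, read 1448, 1263, 1409, 1299.5 and 1519 CPM in WT Non-Tg mice and 1346, 1456, 1258, 1329 and 1344 CPM in KO Non-Tg mice. The WT Tg-SwDI mice read 1954, 2162, 2018, 1983 and 1715 CPM, and the KO Tg-SwDI mice 2349.8, 2427, 2448, 2252 and 2500.2 CPM. Every Tg-SwDI mouse was above every Non-Tg mouse, and every KO Tg-SwDI mouse was above every WT Tg-SwDI mouse, while the Non-Tg groups overlapped. The group means were 1388 ± 105, 1347 ± 71, 1966 ± 162 and 2395 ± 96.7 CPM (SD, n = 5 each). Apoe rose with the transgene by a log2 fold change of 0.50 ± 0.06 (SE, adjusted p = 1.38e-06) in WT mice and of 0.83 ± 0.06 (adjusted p = 7.9e-11) in KO mice. Within Tg-SwDI mice it was 1.22-fold higher in KO than in WT mice (log2 0.28 ± 0.06, adjusted p = 0.0156), and within Non-Tg mice the difference was -0.04 ± 0.06 (adjusted p = 0.928). The difference of the transgene's effect between KO and WT mice was 0.33 ± 0.09 and missed the threshold (adjusted p = 0.0641). It passed in 5 of 29 alternatives. These were DESeq2 (adjusted p = 0.0116) and the fits without WT Non-Tg 3, KO Non-Tg 2, WT Tg-SwDI 4 or KO Tg-SwDI 2 (adjusted p from 0.0407 to 0.0489). Without WT Tg-SwDI 7, the lowest of its group, the call in Tg-SwDI mice was lost (log2 0.24, adjusted p = 0.0594), and it was lost as well when only the 10 Tg-SwDI mice were fitted (0.29, adjusted p = 0.092), when the trend on GC content and length was removed (0.20, adjusted p = 0.0536) and with the replicate number as a block (0.25, adjusted p = 0.301). It was kept in the other 27 of 31 alternatives.

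Clu (chr14:65968483-65981547, plus strand), or clusterin, the chaperone that forms lipoprotein particles of its own, had 1079, 901, 1036, 933 and 1055 CPM in WT Non-Tg and 906, 949.8, 840.2, 868 and 906 CPM in KO Non-Tg mice. With the transgene it had 1189, 1265, 1270.4, 1296 and 1158 CPM in WT and 1323, 1421, 1458, 1305 and 1635 CPM in KO mice. The order of the groups was that of Apoe, with KO Tg-SwDI mice all above WT Tg-SwDI mice and these all above both Non-Tg groups. The rise with the transgene was 0.30 ± 0.06 (log2, adjusted p = 0.00202) in WT and 0.68 ± 0.06 (adjusted p = 5.22e-09) in KO mice. The 2 effects differed by 0.37 ± 0.09 (adjusted p = 0.0463). KO mice were higher than WT mice by 0.21 ± 0.06 with the transgene (adjusted p = 0.0712) and lower by a log2 fold change of -0.16 ± 0.06 without it (adjusted p = 0.54), neither of which passed the test. The interaction was near the threshold and was lost in 17 of 29 alternatives, whose adjusted p ran from 0.00513 to 0.113. In 13 of these 1 mouse was left out, namely WT Non-Tg 2, 4 or 7, KO Non-Tg 1, 4, 7 or 8, any WT Tg-SwDI mouse or KO Tg-SwDI 3, and the highest value was that without WT Non-Tg 2. The difference between KO and WT Tg-SwDI mice was called in 3 of 31 alternatives. These were DESeq2, the choroid plexus score as a covariate and the fit without KO Tg-SwDI 1 (adjusted p = 0.0438 for the last).

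Within each WT group, the mice below 1000 CPM of choroid plexus markers were the lowest for Apoe and Clu, which was not so in KO Tg-SwDI mice. The 3 WT Non-Tg mice with over 1000 CPM of these markers had 1409 to 1519 CPM of Apoe and 1036 to 1079 CPM of Clu, and the other 2 had 1263 to 1299.5 and 901 to 933 CPM. WT Tg-SwDI 7, the only mouse of its group below 1000 CPM, was the lowest of its group for Apoe (1715 CPM), Clu (1158 CPM) and Plin2 (5.84 CPM). KO Tg-SwDI 2, likewise low in these markers, had 2427 CPM of Apoe and 1421 CPM of Clu, within the range of its group. When the choroid plexus score entered as a covariate, the difference of Apoe between KO and WT Tg-SwDI mice was 0.30 ± 0.05 (adjusted p = 0.00191). That of Clu was 0.22 ± 0.05 and that of Plin2 0.35 ± 0.09, both then past the threshold (adjusted p = 0.0281 and 0.0429). The interaction of Clu was then 0.31 ± 0.08 and lost its call (adjusted p = 0.108). With the covariate the transgene raised Apoe by 0.73 ± 0.06, Clu by 0.59 ± 0.06 and Plin2 by 0.72 ± 0.12 in KO mice, each less than without it. Among the Tg-SwDI mice above 1000 CPM alone, Apoe had 1954 to 2162 CPM in WT and 2252 to 2500.2 CPM in KO mice, and Clu 1189 to 1296 and 1305 to 1635 CPM.

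Lpl (chr8:68880491-68907448, plus strand), the lipase that is also a marker of microglia at plaques, had 39.4, 35.1, 33.6, 36.3 and 38.5 CPM in WT Non-Tg and 38.0, 32.2, 43.5, 39.5 and 38.3 CPM in KO Non-Tg mice. In Tg-SwDI mice the values were 53.2, 61.9, 60.3, 57.5 and 62.4 CPM with miR-34a and 76.2, 89.4, 54.5, 58.4 and 74.5 CPM without it. All Tg-SwDI mice exceeded all Non-Tg mice, whereas KO Tg-SwDI mice were spread (SD 14.2 CPM, against 3.77 in WT Tg-SwDI) and overlapped the WT mice. Lpl rose 1.62-fold with the transgene in WT mice (log2 0.69 ± 0.10, adjusted p = 0.000109) and 1.84-fold in KO mice (0.88 ± 0.10, adjusted p = 1.69e-06). The difference between KO and WT mice with the transgene, 0.26 ± 0.10, did not pass (adjusted p = 0.179).

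Lrp1 (chr10:127538161-127621148, minus strand), the large endocytic receptor for Apoe, did not separate the groups in any comparison. It had 422 to 477 CPM in WT Non-Tg, 398 to 479 in KO Non-Tg, 428 to 515 in WT Tg-SwDI and 427 to 501 CPM in KO Tg-SwDI mice. The group means lay between 440.0 and 457 CPM, closer than the SD of any group (21.5 to 34.2 CPM). The fitted difference with the transgene was 0.01 ± 0.06 in WT and 0.06 ± 0.06 in KO mice (adjusted p = 0.947 and 0.55). The order of the group means changed when libraries were scaled by size alone.

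The 2 efflux transporters differed in their response to the transgene. Abca1 (chr4:53030787-53159895, minus strand), which lipidates Apoe, read 52.0, 45.8, 47.2, 45.4 and 59.8 CPM in WT Non-Tg and 50.5, 53.2, 53.2, 50.3 and 52.2 CPM in KO Non-Tg mice. It read 66.0, 78.9, 65.7, 69.0 and 65.9 CPM in WT Tg-SwDI and 66.3, 76.1, 67.2, 66.0 and 44.3 CPM in KO Tg-SwDI mice. The last of these values is KO Tg-SwDI 8, which alone lay below the Non-Tg range, while the other 9 Tg-SwDI mice lay above it. Abca1 rose with the transgene by 0.47 ± 0.10 in WT mice (log2, adjusted p = 0.00592) and by 0.30 ± 0.10 in KO mice (adjusted p = 0.0385). Without KO Tg-SwDI 8 the rise in KO mice was 0.41 ± 0.07 (adjusted p = 0.00012). The call in KO mice, made with all 20 mice, was lost in 14 of 31 alternatives, among them the 9 that left out 1 of the other KO mice of either group (adjusted p from 0.0534 to 0.0806). Between KO and WT Tg-SwDI mice Abca1 differed by -0.11 ± 0.10 (adjusted p = 0.591). Abcg1 (chr17:31057675-31117988, plus strand), which passes cholesterol on to particles that already hold lipid, had group means between 61.1 and 64.9 CPM and ranges that overlapped throughout. Its difference with the transgene was 0.01 ± 0.06 in WT mice (adjusted p = 0.96) and -0.07 ± 0.06 in KO mice (adjusted p = 0.384).

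Ch25h (chr19:34473778-34475164, minus strand), the hydroxylase that myeloid cells switch on when activated, showed the steepest rise of the 10 genes. WT Non-Tg mice had 0.426, 0.793, 0.517, 0.45 and 0.764 CPM and KO Non-Tg mice 0.765, 0.522, 0.579, 0.432 and 0.145 CPM, which stood for 3 to 16 counts a mouse. WT Tg-SwDI mice had 2.63, 2.93, 3.04, 3.33 and 2.63 CPM and KO Tg-SwDI mice 5.16, 6.0, 3.77, 2.26 and 2.81 CPM, or 44 to 115 counts. All 10 Tg-SwDI mice lay above all 10 Non-Tg mice, and the KO Tg-SwDI mice covered a range on both sides of the WT Tg-SwDI mice. The rise was 4.9-fold in WT mice (log2 2.29 ± 0.28, adjusted p = 2.69e-06) and 8.1-fold in KO mice (3.02 ± 0.29, adjusted p = 1.23e-08). Neither the interaction (0.72 ± 0.43, adjusted p = 0.388) nor the difference between KO and WT Tg-SwDI mice (0.46 ± 0.22, adjusted p = 0.268) passed. Of the 50-base stretches in the transcripts of Ch25h, 8.22% also occur in the annotated gene Gm26902, so that some of its counts are uncertain.

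Soat1 (chr1:156424525-156474331, minus strand), which esterifies cholesterol, had 27.4 to 32.9 CPM in WT Non-Tg and 26.2 to 29.7 CPM in KO Non-Tg mice. With the transgene it had 34.9 to 41.6 CPM in WT and 33.7 to 39.4 CPM in KO mice, so that all Tg-SwDI mice were higher and the KO and WT ranges nearly coincided. It rose with the transgene by 0.33 ± 0.06 in WT mice (log2, adjusted p = 0.000733) and by 0.40 ± 0.06 in KO mice (adjusted p = 3.13e-05). The difference between KO and WT Tg-SwDI mice was -0.02 ± 0.06 (adjusted p = 0.911).

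Plin2 (chr4:86648386-86670060, minus strand), which coats lipid droplets, read 4.96, 3.92, 5.21, 5.2 and 5.68 CPM in WT Non-Tg and 5.31, 5.45, 4.87, 5.28 and 5.22 CPM in KO Non-Tg mice. The WT Tg-SwDI mice read 7.46, 7.99, 7.41, 9.37 and 5.84 CPM and the KO Tg-SwDI mice 10.1, 9.29, 9.91, 8.72 and 9.8 CPM. Each Tg-SwDI mouse was above each Non-Tg mouse, and 4 of 5 WT Tg-SwDI mice were below all KO Tg-SwDI mice, the exception being WT Tg-SwDI 6 with 9.37 CPM. The transgene raised Plin2 by 0.61 ± 0.11 (log2, adjusted p = 0.000461) in WT and by 0.87 ± 0.11 (adjusted p = 9.25e-07) in KO mice. KO Tg-SwDI mice were higher than WT Tg-SwDI mice by 0.33 ± 0.10, which missed the threshold with all mice (adjusted p = 0.0906) and passed it without WT Tg-SwDI 6 (0.42, adjusted p = 0.0477).

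Fabp5 (chr3:10012548-10016607, plus strand), the carrier of fatty acids in the cytosol, had 53.4, 50.9, 53.0, 56.5 and 48.8 CPM in WT Non-Tg and 54.6, 55.9, 57.6, 58.2 and 59.9 CPM in KO Non-Tg mice. It had 57.4, 60.6, 61.9, 58.1 and 64.0 CPM in WT Tg-SwDI and 72.1, 71.8, 76.4, 58.1 and 46.1 CPM in KO Tg-SwDI mice. In KO Tg-SwDI mice 3 values lay above those of all other mice, while KO Tg-SwDI 8 (46.1 CPM) was the lowest of all 20. With all mice the difference with the transgene was 0.20 ± 0.09 in WT and 0.18 ± 0.09 in KO mice, and neither passed (adjusted p = 0.274 and 0.156). Without KO Tg-SwDI 8 both passed, at 0.20 ± 0.06 (adjusted p = 0.0337) in WT and 0.28 ± 0.06 (adjusted p = 0.00109) in KO mice. This mouse is not part of the WT comparison, but all groups share 1 estimate of the spread in the fit. The WT difference was also called when only the 10 WT mice were fitted (adjusted p = 0.0191). The difference between KO and WT Tg-SwDI mice was 0.11 ± 0.09 with KO Tg-SwDI 8 and 0.21 ± 0.06 without it (adjusted p = 0.554 and 0.0699). Fabp5 shares 5.48% of its 50-base stretches with 5 other annotated genes, among them Fabp5l2, and Plin2 shares 2.57% with Gm12551, which leaves part of their counts uncertain.

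**Figure D3:**
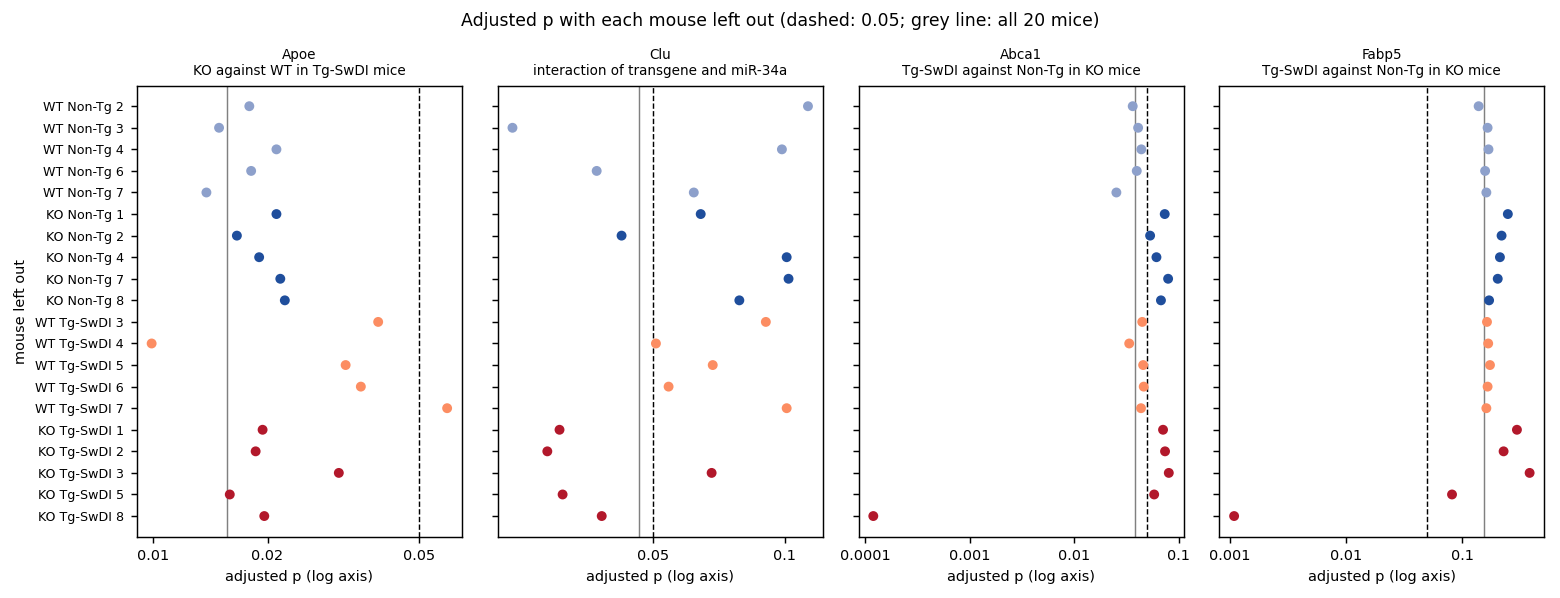
Adjusted p (log axis) of 4 results with each of the 20 mice left out, the dashed line being 0.05 and the grey line the value with all mice. The call of Apoe is lost without WT Tg-SwDI 7 alone, that of Clu without any of 13 mice, and those of Abca1 and Fabp5 move farthest to the left without KO Tg-SwDI 8.

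Of 83 further lipid pathway genes listed by role, 74 were tested, and Apoc2, Apoc4, Apoa1, Apob, Apol6, Gpihbp1, Soat2, Plin1 and Fabp4 did not pass the filter on low counts. With miR-34a present, 4 of 74 rose with the transgene and none fell, a share near the 3.94% of all genes called higher. They were Plin4, a further droplet coat (3.32-fold from 5.44 ± 1.98 CPM, log2 1.73 ± 0.33, adjusted p = 0.00258), the transporter Abca9 (0.77 ± 0.12, adjusted p = 0.000145), the lysosomal cholesterol carrier Npc2 (0.63 ± 0.10, adjusted p = 0.000261) and Lcat, which esterifies cholesterol on particles (0.29 ± 0.08, adjusted p = 0.0316). Lcat lost its call without WT Non-Tg 3 or 6 or without WT Tg-SwDI 4, 5, 6 or 7 (adjusted p up to 0.128). The median of the 74 was 0.05, against 0 for all genes.

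Without miR-34a, 24 of 74 pathway genes rose with the transgene and 2 fell, beside 12.5% of all genes called higher and 8.31% called lower, and the median was 0.12 against -0.005. Among lipoproteins and their remodelling 4 of 7 tested rose (Apoc1, Pltp, Lcat and Lmf1), and among receptors 6 of 17 rose (among them Lrp5, Scarb2, Msr1 and Mylip) and Sorl1 fell. Among sterol transporters 4 of 11 rose (among them Abca9, Npc1 and Npc2) and Abca5 fell, and 2 of 10 nuclear receptors and regulators rose (Ppard and Srebf1). Of 5 oxysterol enzymes 1 rose (Cyp27a1). Of the 16 genes of ester storage and droplets 4 rose (Plin3, Plin4, Pnpla2 and Lipa), and of 8 genes of fatty acid binding and transport 3 rose (Fabp7, Scd1 and Scd2). The calls of Pltp, Scd2 and Apoc1 were lost in 19 of 31, 11 of 31 and 7 of 30 alternatives, of which 13, 7 and 5 left out 1 mouse (adjusted p up to 0.52, 0.12 and 0.387 over all alternatives). The 3 largest rises were those of the scavenger receptor Msr1 (0.162 ± 0.164 to 0.527 ± 0.101 CPM, log2 1.66 ± 0.47, adjusted p = 0.0136), Plin4 (1.26 ± 0.34, adjusted p = 0.0149) and Npc2 (47.7 ± 3.88 to 102 ± 13.2 CPM, 1.09 ± 0.10, adjusted p = 5.65e-08). The falls were smaller, with -0.19 ± 0.06 for Abca5 (adjusted p = 0.0162) and -0.16 ± 0.06 for Sorl1 (adjusted p = 0.0466), the latter lost when any of 16 mice was left out. With the choroid plexus score as a covariate, 12 of 74 genes were called in KO mice and all 12 rose. Of all 16107 genes, 1227 were then called, 1067 of them higher, against 3351 and 2013 without the covariate. The calls of Msr1, Plin4, Abca5 and Sorl1 were lost with it (adjusted p = 0.062, 0.105, 0.221 and 0.45).

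**Figure D4:**
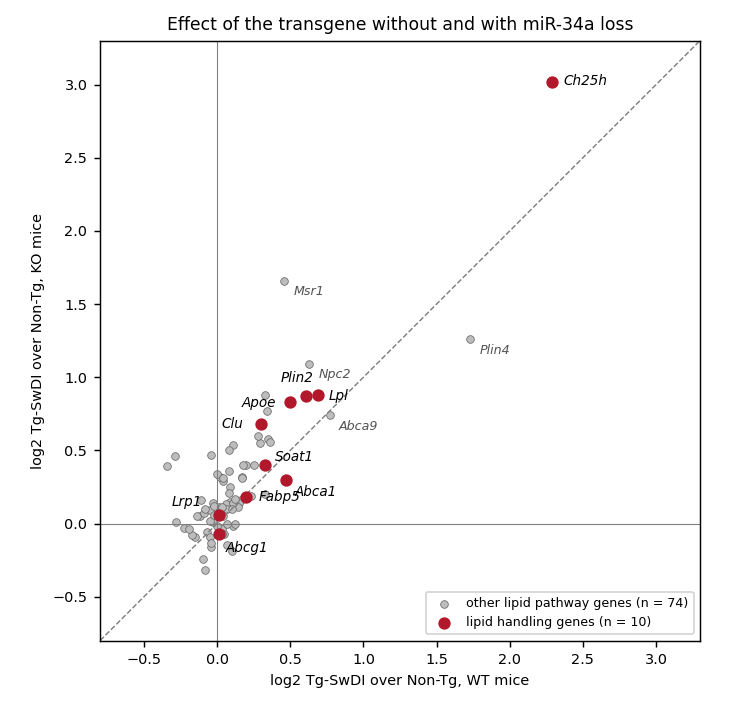
Log2 difference of Tg-SwDI over Non-Tg mice in WT mice (horizontal) and in KO mice (vertical) for the 10 genes (red) and 74 other lipid pathway genes (grey), with a dashed line of equal effects. Ch25h lies at 2.29 and 3.02, 7 of the 10 genes and 54 of the 74 lie above the line, and Lrp1 and Abcg1 lie near 0 on both axes.

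Between KO and WT mice with the transgene, 1 of 74 pathway genes was called higher and 1 lower, beside 1.48% and 0.503% of all genes. The gene called lower was Abca5 (log2 -0.25 ± 0.06, adjusted p = 0.0229). Abca5 lost its call without WT Tg-SwDI 3, 6 or 7 or KO Tg-SwDI 3 (adjusted p up to 0.0765). Between KO and WT mice without the transgene edgeR called 0 of 74 and 0% of all genes. At an unadjusted p under 0.05 there were 6 of the 74, beside 1302 of all 16107 genes, and DESeq2 called 0 of the 74. The interaction gave 0 of 74 in edgeR, beside 0.428% of all genes called higher and 0.18% called lower. At an unadjusted p under 0.05 there were 16 of the 74, beside 2821 of all 16107 genes. DESeq2 called 3 of the 74, beside 431 of all genes.

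Markers of glia moved with the same comparisons. All 14 microglial markers rose with the transgene in WT mice (median log2 0.81) and in KO mice (1.30), and their summed level was 452 to 569 CPM in WT Non-Tg, 455 to 489 in KO Non-Tg, 859.8 to 1025 in WT Tg-SwDI and 1068 to 1383 CPM in KO Tg-SwDI mice. All 10 markers of microglia at plaques rose in both comparisons as well (medians 2.62 and 3.41), with sums of 137 to 186, 139 to 167, 579.9 to 731 and 752 to 1034 CPM. Between KO and WT Tg-SwDI mice 5 of 14 microglial markers and 6 of 10 plaque-associated markers were called higher. Of 12 astrocyte markers, 7 rose in WT mice, 8 in KO mice, and Gfap was the only marker called between KO and WT Tg-SwDI mice. Their sums were 5112 to 5494, 5292 to 5662, 6454 to 7363 and 6835 to 8515 CPM. No list had a marker at 0 in a group, and how far the number of glia accounts for the levels of the 10 genes was not tested.

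Among the other tissues, 12 of 14 choroid plexus markers were called higher with the transgene in KO mice and 0 of 14 in the other comparisons. Between KO and WT Non-Tg mice their median was -3.10 on the log2 scale, with 14 of 14 at an unadjusted p under 0.05, and in the interaction it was 2.79 with 8 of 14. Their sums were 69.5 to 4522, 71 to 367, 133 to 3899 and 139.7 to 4053 CPM in the 4 groups. Of 10 oligodendrocyte markers 1 was called higher with the transgene in WT and 5 in KO mice, and of 10 neuronal markers 2 were called lower in KO mice. Of 9 endothelial markers, Ly6c1 was called higher in KO Tg-SwDI mice in both comparisons that contain them, and Tek lower with the transgene in WT mice. Of 4 ependymal markers, Foxj1 alone was called, higher with the transgene in KO mice. None was called among 5 mural, 6 border macrophage, 5 meningeal fibroblast and 4 tested blood markers.

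**Figure D5:**
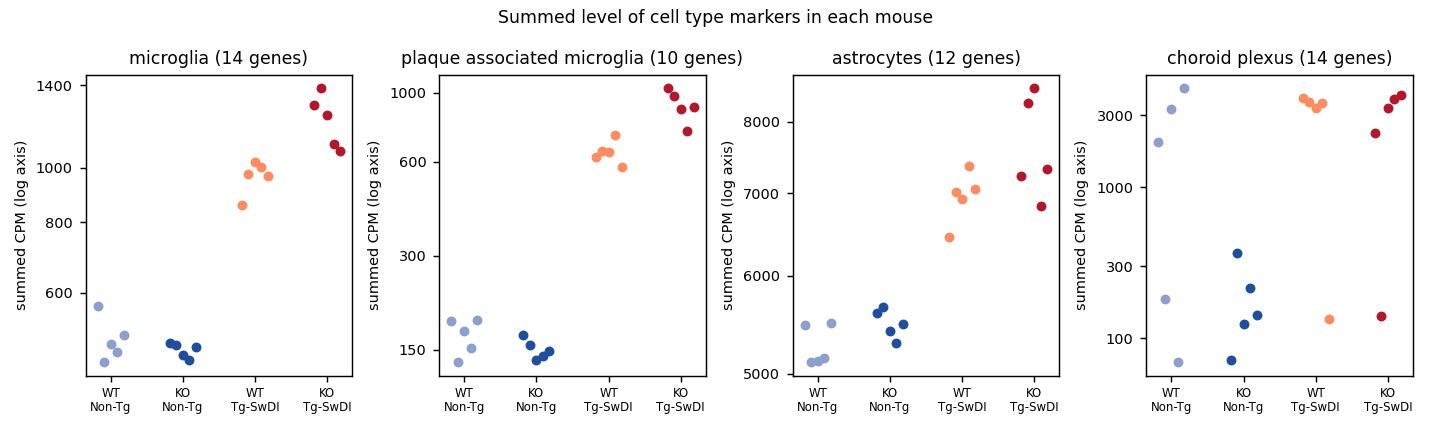
Summed CPM of marker genes in each mouse (log axes), for microglia, microglia at plaques, astrocytes and choroid plexus in the 4 groups. Microglial sums of KO Tg-SwDI mice (1068 to 1383 CPM) lie above those of WT Tg-SwDI mice (859.8 to 1025 CPM), and all 5 choroid plexus sums of KO Non-Tg mice lie at or below 367 CPM.

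Within groups, the genes that varied most like each of the 10 were ranked by Pearson's r of log2 CPM after the group means were removed, over 20 mice that share depth, composition and tissue content. Apoe varied most like Ltbr (0.89), Ctsd (0.86) and Hist1h1c (0.85), Clu like Tnfrsf1a (0.89), Stra6 (0.89) and Gm2a (0.88), and Plin2 like Tmem45a (0.84), Ghr (0.83) and Lamp2 (0.79). Among the 10 themselves, r was 0.80 for Apoe with Clu, 0.72 with Plin2, 0.08 with Ch25h and -0.03 with Lpl. Lpl followed Mpp3 (0.83), Grip1 (0.82) and Myo5b (0.81), and Ch25h followed Plag1 (0.79), Dpy19l4 (0.77) and Kif20a (0.74). Soat1 was closest to Prrx1 (0.84), Arap3 (0.83) and Acvrl1 (0.78), Lrp1 to Prex1 (0.88), Lrrk1 (0.87) and Pcdhgc3 (0.86), and Abcg1 to Adgrf5 (0.83), Trrap (0.79) and Sp4 (0.79). The values for Abca1 with Gabrg1 (0.90), Lonrf3 (0.90) and Specc1l (0.89) and for Fabp5 with Adk, Strap and Tm9sf2 (0.93 each) leaned on KO Tg-SwDI 8. Without it they were 0.72, 0.70 and 0.70 for Abca1 and 0.82, 0.78 and 0.80 for Fabp5.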

How the data were processed

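Reads of stranded mRNA libraries (DNBSEQ) were processed by the authors, who used STAR on mm10 and featureCounts on ENSEMBL genes. The deposited values are raw counts for 39056 genes in 20 mice, with no normalization. The strand setting and the handling of reads that fit several genes are not given in the sources used here. Symbols, exonic lengths and 3′ UTRs came from GENCODE M21 (99.5% of identifiers matched).

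Counts were scaled by TMM in edgeR 4.0.16 (R 4.3.3), and 16107 genes were kept by filterByExpr (minimum count 10, minimum total 15). A robust quasi-likelihood model of the 4 groups (16 residual degrees of freedom) gave 4 pairwise contrasts and the interaction. P-values were adjusted by the Benjamini-Hochberg method over all genes tested, at an FDR of 0.05. The pipeline was tested on simulated data, in which 100% of genes changed by 1 on the log2 scale and 88% of those changed by 0.5 were called. Smaller changes, like the KO effects of the 10 genes, and changes in genes with few counts were not tried. Depth was 19549622 to 21066868 counts a mouse, which limits genes with few counts.

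The 10 genes, the pathway lists and the marker lists were chosen with earlier results of these data known. Named from the pathway lists were the 3 called genes with the largest change in each direction in each contrast, and for each of the 10 genes the 3 genes most like it. The other called pathway genes were named after their values were seen. Some pathway genes are not reported here by name. Alternatives were DESeq2 1.42.0, edgeR's exactTest, RLE factors, library size alone, no filter, a mean CPM of at least 1, only the mice compared, the replicate number as a block, the choroid plexus score as a covariate, removal of the trend on GC content and length, each mouse left out and, added after seeing the data, mitochondrial genes left out.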

Additional observations from a re-analysis of the deposited data

Results flagged for a closer look

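A mouse stood apart from the other 4 of its group, by the gap to its neighbour over the range of the group, in 2 of 40 groups of 5 tested. Chance alone flags about 1 group in 20. Lrp1 read 515 CPM in WT Tg-SwDI 6 and 428 to 446 CPM in the other WT Tg-SwDI mice. Abca1 read 78.9 CPM in WT Tg-SwDI 4 and 65.7 to 69.0 CPM in the others of that group. The low Abca1 of KO Tg-SwDI 8 (44.3 CPM) did not reach this limit.

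For Clu, the KO effect with the transgene exceeded that without it by 0.37 ± 0.09 on the log2 scale (edgeR, adjusted p = 0.0463). The KO effect itself was 0.21 ± 0.06 in Tg-SwDI mice and -0.16 ± 0.06 in Non-Tg mice, and neither passed the test (adjusted p = 0.0712 and 0.54). The call of the difference was lost in 17 of 29 alternatives, 13 of which left out 1 mouse. All KO Non-Tg mice were low in choroid plexus markers, and the part of this in the difference was not tested beyond the covariate, with which it was 0.31 ± 0.08 (adjusted p = 0.108).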

How the results depend on the processing

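For the 10 genes, 1481 of 1530 values from alternatives kept their side of the threshold, 35 lost a call and 14 gained one. No called value changed sign, while 26 of the 1481, all without a call, did. Of 14 calls of the transgene 13 were kept in all 31 alternatives, the exception being Abca1 in KO mice. The number of the 10 called between KO and WT Tg-SwDI mice went from 1 to 2 with DESeq2, to 3 with the choroid plexus covariate and to 0 with only the 10 mice compared or with the GC and length trend removed. The number called for the interaction went from 1 to 2 with DESeq2 and to 0 with library size alone, with the covariate or with the trend removed. For the 74 pathway genes, the count between KO and WT Tg-SwDI mice went from 2 to 1 with library size alone or no filter, and to 0 with only the mice compared or the trend removed. Their count with the transgene in KO mice went from 26 to 12 with the covariate, while that of all genes went from 3351 to 1227. For the interaction their count went from 0 to 3 with DESeq2. The causes were not tested. With each mouse left out, the counts of the 10 were 0 to 2 between KO and WT Tg-SwDI mice, 0 to 0 in Non-Tg mice, 7 to 8 and 6 to 8 for the transgene in WT and KO mice and 0 to 2 for the interaction. Those of the 74 were 0 to 3, 0 to 0, 3 to 6, 22 to 27 and 0 to 1. With the trend removed, Lrp1 was called higher with the transgene in KO mice (0.16, adjusted p = 0.0355). The order of the group means was kept with library size alone for 9 of 10 genes. Scaling by library size alone moved the median of all genes to at most -0.043.

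Mice with the same label number were by median no more alike than others (16 pairs, r from -0.404 to 0.154, median -0.0395). The median of the 134 other pairs was 0.013. These values over all genes do not show whether a number stands for a shared litter or batch, which was not tested. Only the numbers 3 and 5 occur in both Tg-SwDI groups, so a block on the number leaves fewer mice to compare directly. Calls lost with the block therefore cannot be told apart from this loss. With the replicate number as a block, 0 of the 10 and 0 of the 74 were called between KO and WT Tg-SwDI mice, and 0 of the 10 for the interaction. Apoe then differed by 0.25 between KO and WT Tg-SwDI mice (adjusted p = 0.301). Over all genes, 320 were called between KO and WT Tg-SwDI mice, 8 with the block, 58 with only those mice, 187 with the trend removed, 565 with exactTest, 678 with DESeq2 and 579 with the covariate. With 1 mouse left out there were 78 to 701, the moves over 1.5 times being 78, 124, 133 and 189 without WT Tg-SwDI 7, 5, 3 and 6, 199 and 206 without KO Non-Tg 8 and 4, and 210.0 and 701 without KO Tg-SwDI 3 and 2. Between KO and WT Non-Tg mice 0 were called, 1 with no filter or only those mice, 4 with exactTest, 7 with DESeq2 and 0 to 3 with 1 mouse left out (1 without WT Non-Tg 6 and 3 without WT Non-Tg 7). The transgene in KO mice gave 3351, and 1227 with the covariate. The interaction gave 98, 31 with the covariate, 38 with the block, 42 with the trend removed, 59 with library size alone and 431 with DESeq2. With 1 mouse left out it gave 14 (without KO Non-Tg 7) to 500.0 (without KO Tg-SwDI 2). It moved by over 1.5 times without 11 other mice as well, to 26, 36 and 170.0 without WT Non-Tg 2, 4 and 3, to 43 and 51 without KO Non-Tg 4 and 8, to 31, 46 and 64 without WT Tg-SwDI 7, 3 and 5, and to 64, 151 and 209 without KO Tg-SwDI 3, 1 and 8.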
